A study of Mus musculus with 2 samples.

Results

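Plasmacytoid dendritic cells (pDC) were described in single-cell RNA-sequencing of liver non-parenchymal cells from 1 normal and 1 fibrotic C57BL/6 mouse. The cells were selected on the raw counts of unique molecular identifiers (UMIs) of 4 genes, Siglech, Ccr9, Klk1 and Cox6a2. A cell was taken as a pDC when these genes together had at least 8 UMIs and at least 2 of them were detected, when the Kupffer cell genes Clec4f, Vsig4 and Cd5l together stayed under 20 UMIs per 10000, and when Cd79a (B cells) and Cd3e (T cells) together had at most 2 UMIs. This gave 204 of 7471 normal cells and 161 of 6132 fibrosis cells, or 365 of 13603 in all. The fibrotic animal was a male aged 8 weeks at the start that received CCl4 (15% in olive oil, 0.6 µl per g) by intraperitoneal injection 2 times a week over 6 weeks, and the normal animal was a male of that age injected with olive oil on the schedule of the other. Cells were isolated 48 h after the last injection by collagenase perfusion, and most hepatocytes were spun out. Each condition is 1 mouse and 1 library, so no test between the conditions was possible, cells were not used as replicates, and every difference given below is one between 2 animals.

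pDC are dendritic cells of the blood and of lymphoid and other tissues that develop under Flt3 signalling. They recognise nucleic acids inside endosomes through Tlr7 and Tlr9, and activated pDC secrete large amounts of type I interferon, for which they keep a well-developed secretory apparatus. Their fate is set by the E protein Tcf4 (also called E2-2), a transcription factor that binds short DNA motifs called E-boxes and is needed to keep a mature pDC from drifting towards a conventional dendritic cell. Among the genes used for selection, Siglech encodes a sialic acid-binding receptor of pDC that signals through the adaptor Tyrobp (DAP12), and Ccr9 a chemokine receptor for Ccl25. Klk1 encodes tissue kallikrein, a serine protease, and Cox6a2 the muscle-type isoform of subunit 6a of cytochrome c oxidase.

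The promoters of the genes used for selection are shown because Tcf4, an E-box binding protein that the rule did not use, had a UMI in every one of the selected cells. A promoter here is the sequence from 250 bases before to 50 bases after the start of the gene, as given by RefSeq for GRCm38.p6, and the 3 genes of the rule that matched this set are printed 5′ to 3′ on the strand of the gene. Capitals mark the E-box CAGGTG, or CACCTG where the motif lies on the opposite strand. The Siglech promoter is at chr7:55767934-55768233 (plus strand), the Klk1 promoter at chr7:44225110-44225409 (plus strand) and the Ccr9 promoter at chr9:123766961-123767260 (plus strand).
Siglech: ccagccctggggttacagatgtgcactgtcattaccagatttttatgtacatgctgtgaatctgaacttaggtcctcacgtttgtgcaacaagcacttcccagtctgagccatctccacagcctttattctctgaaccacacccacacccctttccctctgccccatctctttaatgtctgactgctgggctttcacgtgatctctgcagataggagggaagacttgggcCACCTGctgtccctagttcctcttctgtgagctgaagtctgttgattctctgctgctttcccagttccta
Klk1: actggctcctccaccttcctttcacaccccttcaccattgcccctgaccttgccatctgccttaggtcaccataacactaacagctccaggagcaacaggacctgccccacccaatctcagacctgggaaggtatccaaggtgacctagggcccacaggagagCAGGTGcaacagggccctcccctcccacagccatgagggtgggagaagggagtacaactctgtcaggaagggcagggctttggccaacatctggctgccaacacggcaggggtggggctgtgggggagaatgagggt
Ccr9: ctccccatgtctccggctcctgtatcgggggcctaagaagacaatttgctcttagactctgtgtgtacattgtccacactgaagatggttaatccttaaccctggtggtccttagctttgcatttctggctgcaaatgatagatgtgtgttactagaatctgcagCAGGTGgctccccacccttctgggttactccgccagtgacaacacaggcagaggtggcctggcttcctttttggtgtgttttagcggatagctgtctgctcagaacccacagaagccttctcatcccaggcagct
The motif, searched on both strands, was in all 3 of these promoters and in 9 of the 21 promoters found for the genes of the rule and the 25 genes that most set pDC apart (given below). Of all 27025 promoters of the same length, 5413 (20%) held it. A match describes the letters of this window and was not tied to binding of any factor.

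The deposited normal library held 8130 cells with 44062632 UMIs, and the fibrosis library 6437 cells with 53288463 UMIs. The cells used here are those in which mitochondrial transcripts took less than 10% of the UMIs and more than 200 genes were found. Only 15 cell barcodes occurred in both libraries, 0 of them among pDC. Levels are UMIs of a gene per 10000 UMIs of the cells pooled, and intervals, given in parentheses, are exact and at 95%. They cover counting error only, not variation between mice. B cells (653 normal, 270 fibrosis), T cells (616 and 197), cDC1 (113 and 55) and cDC2 (79 and 72) were picked by raw counts of their own markers for comparison. The B cell class includes plasma cells.

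pDC made up 2.73% (2.37 to 3.13) of the normal and 2.63% (2.24 to 3.06) of the fibrosis library, a ratio of fibrosis over normal of 0.962 (0.777 to 1.19). The difference between the shares was within counting error under this rule. With the Kupffer cell genes held under 5 UMIs per 10000, 198 normal and 81 fibrosis pDC were left. The 4 genes of the rule had 9 to 114 UMIs per normal pDC with a median of 45, and 8 to 84 per fibrosis pDC with a median of 33. These values chose the cells and are description. All 4 genes were detected in 150 normal and 96 fibrosis pDC. At least 20 of these UMIs were found in 189 normal and 150 fibrosis cells. Just inside it, with 8 to 11 UMIs, lay 9 and 10 cells, of which 4 and 8 met the other conditions, and just outside it, with 5 to 7 UMIs, lay 11 and 12. Tcf4 stood at 19.6 and 14.4 UMIs per 10000 in the pDC just inside and at 7.90 and 15.2 in the cells just outside, so the fibrosis cells on both sides of the limit had close Tcf4 levels. A further 11 fibrosis cells and 0 normal cells passed the first conditions but had Kupffer cell genes over the limit.

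Depth and RNA of other cell types differed between the libraries before any pDC gene was compared. The median pDC of the normal library had 7187 UMIs (1092 to 30235), and that of the fibrosis library 6228 (1914 to 62523). Over 10000 UMIs were found in 20.6% of normal and 36.6% of fibrosis pDC. Summed over the 9 genes of each list, sinusoidal endothelial genes stood at 33.0 UMIs per 10000 in normal and 57.9 in fibrosis pDC, and stellate cell and fibroblast genes at 6.87 and 87.4. B cells had 4.79 and 39.1 of the latter, so other classes of the fibrosis library carried stellate RNA too. In contrast, hepatocyte genes stood at 139 in normal and 11.8 in fibrosis pDC, and erythroid genes at 48.9 and 0.375. The median normal pDC had 2.37 of the erythroid list, and 1 cell held 2095 of the 4602 Hbb-bs UMIs. Kupffer cell genes stood at 2.41 and 12.6 in pDC and at 3.37 and 19.3 in B cells, and monocyte and neutrophil genes at 1.49 and 12.3 in pDC. Every one of the 9 endothelial and 9 stellate genes had a UMI in pDC of both libraries. The B cell list stood at 0.902 and 0.693 and the T and NK cell list at 1.5 and 0.385, while the plasma cell marker Tnfrsf17 was at 0 in pDC of both.

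The results are therefore also given for the pDC with under 30 UMIs per 10000 of each of the endothelial, the stellate and the monocyte and neutrophil lists, limits chosen after seeing the data. These pDC under the 3 limits numbered 152 of 204 normal and 87 of 161 fibrosis pDC. The limits do not concern other lists: hepatocyte genes stood at 157 and 17.3 UMIs per 10000 in these cells, erythroid genes at 60.6 and 0.896 and Kupffer cell genes at 2.25 and 12.4. The remaining 52 normal (25.5%) and 74 fibrosis pDC (46.0%) were deeper, with medians of 10794 and 15364.5 UMIs beside 6740.5 and 5255, and they supplied 36.0% of the UMIs of normal but 74.8% of those of fibrosis pDC. Counting only pDC under the 3 limits gave 2.03% (1.73 to 2.38) of normal and 1.42% (1.14 to 1.75) of fibrosis cells, a ratio of 0.697 (0.530 to 0.914). B cells over the same limits were 10.6% and 32.2%, and T cells 10.1% and 16.8%. The part that this RNA and the depth of the cells have in the results below was not tested.

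**Figure D1:**
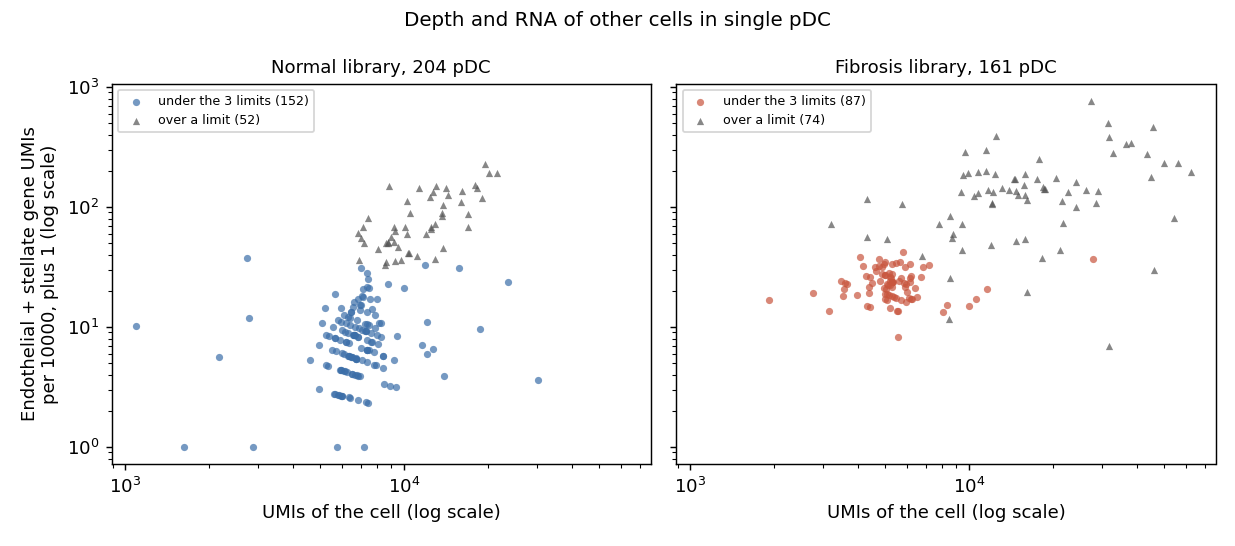
UMIs of each pDC (x axis, log scale) against its UMIs of the endothelial and stellate lists per 10000, plus 1 (y axis, log scale), in the normal (left) and fibrosis library (right). Grey triangles are pDC at or over 30 UMIs per 10000 of an endothelial, stellate or monocyte and neutrophil list (52 normal and 74 fibrosis cells), and their median UMI counts of 10794 and 15364.5 exceed those of the coloured circles (6740.5 and 5255).

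The cells carried the other known markers of pDC. Tcf4 had a UMI in 100% of pDC in both libraries, with 2 to 50 UMIs per normal pDC (median 22) and 8 to 88 per fibrosis pDC (median 24). Its level was 26.5 (25.7 to 27.3) UMIs per 10000 in normal and 22.0 (21.3 to 22.6) in fibrosis pDC, and the highest of the 4 comparison classes was B cells, at 4.17 and 5.18. Pacsin1, an adaptor of vesicle transport, stood at 2.05 (1.85 to 2.28) and 1.23 (1.08 to 1.39), beside at most 0.183 and 0.153 in T cells. Irf8, a transcription factor shared by pDC and cDC1, stood at 36.9 and 23.3, and Bst2, an antiviral membrane protein that antibodies to pDC recognise, at 28.0 and 14.6. With each cell thinned to 1000 UMIs, a Tcf4 UMI remained in 92.2% (87.6 to 95.5) of normal and 91.9% (86.6 to 95.6) of fibrosis pDC, and in 27.0% and 37.8% of B cells and 9.58% and 19.3% of T cells. The corresponding shares for Pacsin1 were 19.6% and 18.0% of pDC and 1.46% and 3.05% of T cells, against 73.5% and 70.2% of pDC before thinning. T cells, at median depths of 4195.5 and 3548 UMIs, stand here for cells that should lack Pacsin1.

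By the ratio to the highest comparison class in the library where that ratio was smaller, 25 genes outside the rule most set pDC apart. Gm21762, a predicted gene on chromosome 13, stood at 6.91 in normal and 2.52 in fibrosis pDC and at no more than 0.0973 in any other class, and it had a UMI in 93.1% and 83.9% of pDC. Cell-surface receptors of immune cells were among the 25: Cd300c (3.30 and 1.65), the inhibitory collagen receptor Lair1 (8.05 and 6.03) and the inhibitory receptor Lag3 (2.94 and 1.52). Runx2, a transcription factor best known from bone and also used by pDC, stood at 9.35 and 5.63, beside at most 0.478 and 0.649 elsewhere. Rpgrip1, best known from photoreceptors, stood at 5.20 and 3.20. Enzymes and transporters were Upb1 of pyrimidine breakdown (2.82 and 1.03), the transferrin receptor Tfrc (2.43 and 1.84) and the sodium pump subunit Atp1b1 (4.82 and 3.28). The phosphatase Ptprs stood at 3.57 and 2.68. The others were Zc3h12c, Smim5, AC140186.1, Mctp2, Rell1, Tubgcp5, Tex2, Dirc2, Hivep3, Rnf122, Sema4b and Nucb2, with 1.16 to 4.28 UMIs per 10000, together with Tcf4, Pacsin1 and Bst2. Each of the 25 was found in at least 66.5% of pDC of either library. Tubgcp5 begins 15228 bases after the end of Siglech on the same strand of chromosome 7 in the GENCODE vM21 annotation of GRCm38, and reads running past one gene into the next could not be told apart from its own in a 3′ count.

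**Figure D2:**
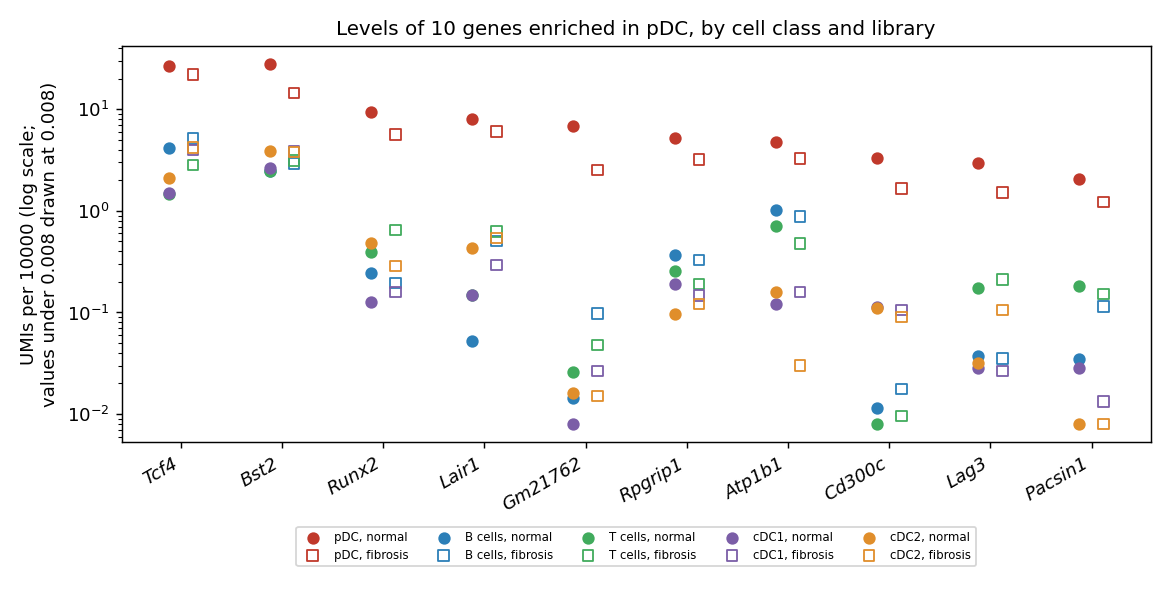
UMIs per 10000 (y axis, log scale) of 10 of the genes that most set pDC apart, in pDC and 4 comparison classes, with filled circles for the normal and open squares for the fibrosis library. The red symbols of pDC lie above those of every other class for each gene, with Tcf4 at 26.5 and 22.0 in pDC and at most 5.18 elsewhere.

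Comparing the libraries, 2471 genes had at least 1 UMI per 10000 in pDC of either. Of these, 302 (12.2%) were at least 2 times higher and 170 (6.88%) at least 2 times lower in fibrosis pDC, with a median log2 ratio of 0.07. In pDC under the 3 limits, 135 of 2351 genes (5.74%) were at least 2 times higher and 163 (6.93%) lower, with a median of 0.17. These shares are the background for the gene lists below. Per cell rather than per 10000 UMIs, 666 genes were at least 2 times higher and 86 lower, since fibrosis pDC held more UMIs on average (12097 against 8424), which moved every log2 ratio by 0.52.

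Of the 33 genes on a list of pDC identity, 30 reached that level. None was at least 2 times higher and 9 were at least 2 times lower in fibrosis pDC, with a median log2 ratio of -0.82. In all, 28 of the 30 had a ratio under 1. Genes that pDC express together with the genes of the rule are not independent of it, so this is a description. In pDC under the 3 limits the median was 0.04, with 14 ratios under 1 and 16 over it, and in the remaining pDC it was -0.91. Per cell rather than per 10000 UMIs, the median was -0.30 in all pDC and -0.31 in pDC under the 3 limits, whose mean depth was 7237 UMIs for normal and 5642 for fibrosis cells.

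Some genes had nearly even counts per cell in both libraries. Siglech, a gene of the rule and so given as description, had a median of 19 UMIs per normal and 18 per fibrosis pDC. Irf8 had medians of 31 and 28, and its ratio was 0.632 (0.609 to 0.657) in all pDC and 1.13 in those under the 3 limits. The ratio of Tcf4 was 0.830 (0.796 to 0.866) and 1.38, that of Runx2 0.603 and 1.18, that of Lair1 0.749 and 1.37 and that of Mpeg1, a pore-forming protein of phagocytes, 0.703 and 1.16. The ratios of Irf8, Tcf4, Runx2, Lair1 and Mpeg1 were thus under 1 in all pDC and over 1 in those under the 3 limits. The latter still held RNA of other cells, with hepatocyte genes at 157 and 17.3 UMIs per 10000 and Kupffer cell genes at 2.25 and 12.4 in normal and fibrosis. Ratios in B and T cells were 1.68 and 2.39 for Irf8, 1.24 and 1.93 for Tcf4, and 0.795 and 1.64 for Runx2. For Lair1 they were 9.73 and 4.26, and for Mpeg1 6.92 and 6.31. Tcf4 had 2.65 in cDC1 and 1.99 in cDC2. Ratios over 1 were thus not particular to pDC.

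By contrast, 13 of the 30 genes had a ratio under 1 in all 6 comparisons, that is in all pDC, in those under the 3 limits and in the remaining ones, each per 10000 UMIs and per cell. Of all 2471 genes compared, 216 (8.74%) did so. The 13 were Bst2, Cd300c, Klk1b27, Klra17, Lag3, Lefty1, Ly6c2, Ly6d, Paqr5, Plac8, Spib, Tyrobp and Upb1. Only Plac8 and Upb1 of these had a ratio under 1 in every comparison class as well. In B cells, T cells, cDC1 and cDC2 the ratios of Upb1 were 0.351, 0.152, 0.305 and 0.201. Those of Ly6c2 were 0.0774, 1.34, 0.512 and 0.0941, and those of Lefty1 0.439, 0.495, 2.25 and 0.316. Bst2 had 1.18, 1.26, 1.44 and 0.982. Tyrobp, the adaptor through which Siglech signals, had a median of 22 UMIs per normal and 10 per fibrosis pDC, a level of 26.2 and 9.96 and a ratio of 0.380 (0.361 to 0.401), or 0.567 in pDC under the 3 limits. In B and T cells its ratio was 3.11 and 1.53, but it was 0.755 (0.654 to 0.869) in cDC1 and 0.586 (0.527 to 0.652) in cDC2. Ly6d, a surface protein of the lymphoid route to pDC, had medians of 14 and 8 and a ratio of 0.380 (0.357 to 0.405), or 0.728, beside 0.740 in B cells, 4.11 in T cells, 1.5 in cDC1 and 1.89 in cDC2. The Ets factor Spib, which acts with Tcf4 in pDC, had a ratio of 0.352 (0.308 to 0.402), or 0.608, with 0.764 (0.607 to 0.955) in B cells. After thinning, a Spib UMI was in 43.6% (36.7 to 50.7) of normal and 18.0% (12.4 to 24.8) of fibrosis pDC. T cells, which should lack it, had 0.325% and 0 of 197 cells (up to 1.52% at a floor of 3 counts). Before thinning the shares of pDC were 88.2% and 78.3%. The level of Plac8 was 24.6 and 9.66, with a ratio of 0.393 (0.372 to 0.415), or 0.593, beside 0.454 in B cells, 0.714 in T cells, 0.830 in cDC1 and 0.463 in cDC2. Klk1b27 belongs to the kallikrein family of Klk1, whose members are nearly identical in sequence, so reads may have been split between them. The genes of the rule chose the cells, so their counts are description. Klk1, Cox6a2 and Ccr9 had medians of 7, 5 and 9 UMIs per normal and 3, 2 and 7 per fibrosis pDC. Fcrla alone had a ratio over 1 in all 6 comparisons, at 1.02 (0.858 to 1.20) in all pDC. None of the 13 was at least 2 times lower in pDC under the 3 limits, where only Irf7 of this list was, at 0.472.

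**Figure D3:**
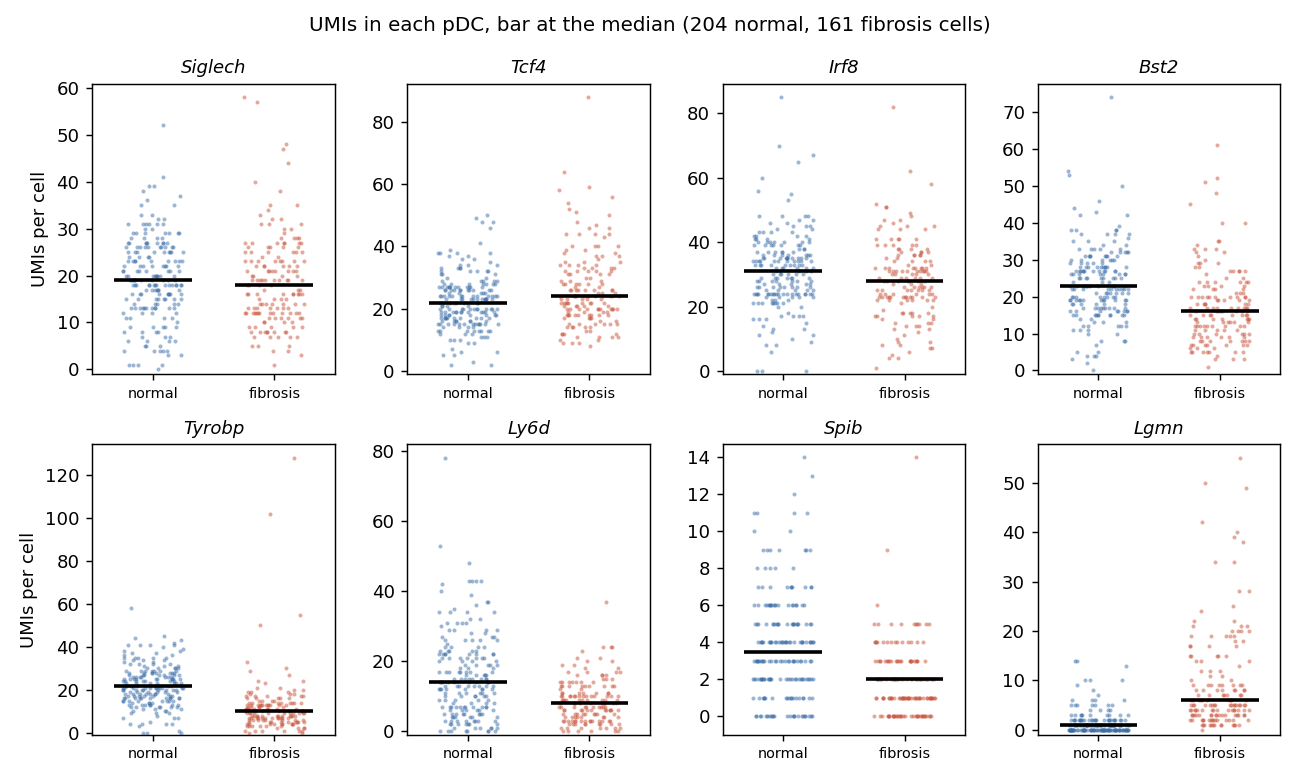
UMIs of 8 genes in each pDC of the normal (blue, 204 cells) and fibrosis library (red, 161 cells), with a bar at the median. The medians of Siglech (19 and 18), Tcf4 (22 and 24) and Irf8 (31 and 28) lie close, those of Bst2 (23 and 16), Tyrobp (22 and 10) and Ly6d (14 and 8) lie lower in the fibrosis library, and that of Lgmn (1 and 6) lies higher.

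**Figure D4:**
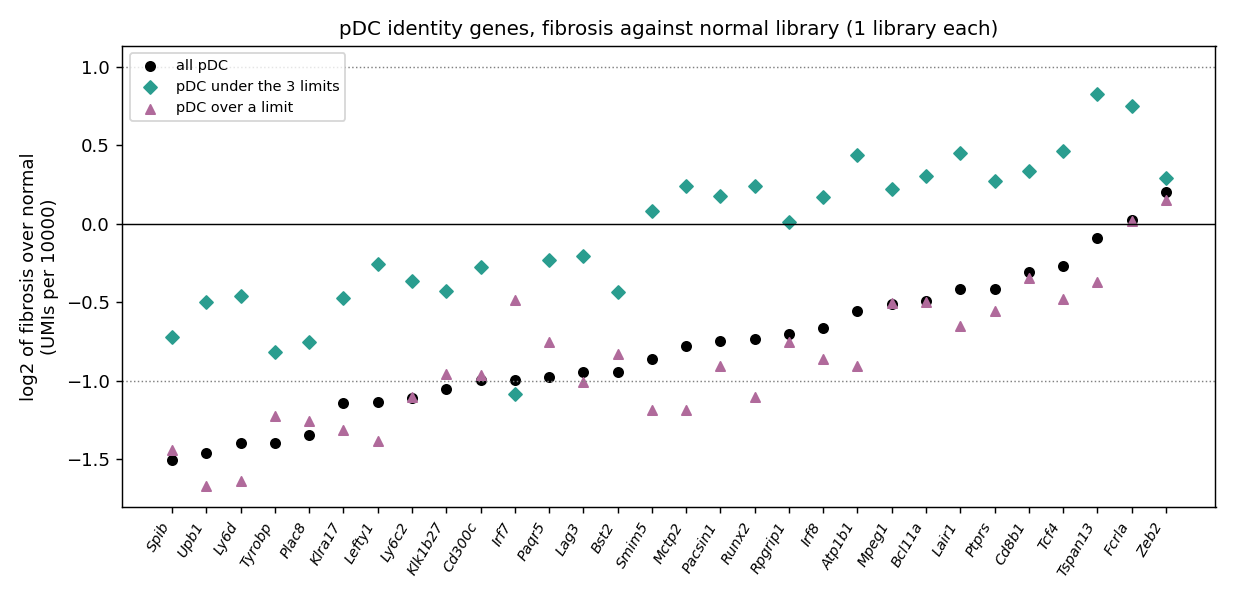
Log2 of the ratio of fibrosis over normal (UMIs per 10000) of the 30 pDC identity genes compared, in all pDC (black circles), in pDC under the 3 limits (green diamonds) and in the remaining pDC (purple triangles), with dotted lines at 2 times higher and lower. The green diamonds, with a median of 0.04, lie above the black circles, with a median of -0.82, for every gene but Irf7.

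Among 23 transcription factors of dendritic cell fate, 14 reached the level for comparison, 0 were at least 2 times higher and 1, Spib, was lower, with a median log2 ratio of -0.40 (0.17 in pDC under the 3 limits). Bcl11a, needed for pDC development, stood at 7.91 and 5.63, a ratio of 0.712, but of 1.23 in pDC under the 3 limits. Zeb2, which favours the pDC over the cDC1 fate, stood at 5.60 and 6.45, a ratio of 1.15 (1.06 to 1.25). Id2, an inhibitor of E proteins such as Tcf4, stood at 1.97 and 2.58. Of the cDC genes, 5 of 17 were compared, with Fscn1 higher (3.06, beside 4.0 in B cells and 4.54 in T cells) and Clec10a lower (0.494, or 0.864 in pDC under the 3 limits), and a median of -0.55. Under the 3 limits 7 were compared, with Sirpa higher (2.02), 0 lower and a median of 0.12. The cDC1 gene Clec9a stood at 0.995 and 0.657. After thinning to 1000 UMIs it was found in 9.80% of normal and 8.70% of fibrosis pDC and in 0.325% and 0.508% of T cells, and before thinning in 46.6% and 47.8% of pDC and 2.60% and 2.54% of T cells.

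The endosomal sensing machinery was present at low to moderate levels. The sensor Tlr7 stood at 1.45 and 0.780 and Tlr9 at 0.0698 and 0.0154, the latter from 12 and 3 UMIs. Unc93b1, which carries these receptors to endosomes, stood at 6.53 and 4.93 (ratio 0.755, or 1.16 in pDC under the 3 limits), and Slc15a4, an endosomal transporter needed for their signalling, at 1.34 and 0.909. Pld4, an endolysosomal exonuclease that limits the ligands of these receptors, stood at 10.3 and 4.94, with a ratio of 0.477 (0.441 to 0.517) in all pDC and 0.805 in those under the 3 limits. Legumain (Lgmn), a lysosomal protease that can process these receptors, stood at 1.85 and 8.05, a ratio of 4.35 (3.85 to 4.92), or 6.51. Lgmn was found in 13.7% of normal and 49.7% of fibrosis pDC after thinning, but B cells had a ratio of 6.93 and T cells of 6.16, and 69.6% of fibrosis B cells held a UMI at the same depth. The Kupffer cell genes C1qa (5.70, or 6.03) and C1qc (7.16, or 7.27) were higher in the same pDC, and their part in the Lgmn ratio was not tested. Ctsb, another lysosomal protease, stood at 16.5 and 27.6. Of the 24 genes on the list, 10 were compared, 1 higher (Lgmn) and 1 lower (Pld4), with a median of -0.12. The median was 0.15 in pDC under the 3 limits, with Lgmn higher and Irf7 (0.472), in place of Pld4, lower.

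Type I and III interferon genes were not detected beyond single UMIs. Of the 20 genes on the list, 12 were listed in a table, and together they had 1 UMI in the 204 normal pDC (Ifnb1) and 1 in the 161 fibrosis pDC (Ifnz). Interferon response genes gave a median log2 ratio of -0.36 over 12 genes compared, with 0 higher and 1 lower, Ifi209 (0.380), and -0.20 with 0 in either direction in pDC under the 3 limits. Ly6e stood at 23.7 and 19.7 and Irf7, the factor that drives interferon transcription in pDC, at 2.99 and 1.5. Isg15 stayed under 1 UMI per 10000, at 0.786 and 0.262.

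Of 20 cytokines and chemokines, 5 reached the level for comparison. Cxcl10, a chemokine of the interferon response, stood at 2.13 and 3.77, a ratio of 1.77 (1.56 to 2.01), or 1.24 in pDC under the 3 limits, and Tgfb1 at 2.71 and 2.16. Tnf stood at 0.337 and 0.282 and Il6 at 0.0116 and 0.0103, and Il12b had 0 UMIs in normal and 1 in fibrosis pDC. The chemokine Ccl4 stood at 7.73 and 3.32 (ratio 0.429, or 0.707 in pDC under the 3 limits) and its neighbour Ccl3 at 1.04 and 0.709. One normal pDC held 163 of the 1329 Ccl4 UMIs. Cxcl16 stood at 0.5 and 1.62, a ratio of 3.23 (2.54 to 4.15), with 3.34 in B cells. None of the 13 cytokine and growth factor receptors compared was at least 2 times higher or lower. Flt3, the receptor that drives pDC development, stood at 1.09 and 1.32, a ratio of 1.21 (1.0 to 1.47), but of 2.15 in pDC under the 3 limits. Among receptors of migration and adhesion, the integrin Itgb1 was higher (3.14 and 7.75, ratio 2.47, or 1.81), beside 2.83 in B cells and 1.97 in T cells. Ceacam1 was lower (1.02 and 0.478, ratio 0.466, or 0.734). The chemokine receptor Ccr2 stood at 1.42 and 1.45, a ratio of 1.02 in all pDC and of 1.78 in pDC under the 3 limits. Cxcr4, a receptor for the chemokine Cxcl12, stood at 0.623 and 1.06, and was at least 2 times higher only in the latter cells (2.56).

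MHC class II genes present antigen to CD4 T cells. Of 7 genes compared, 4 were at least 2 times lower (Cd74, H2-Ab1, H2-DMa and H2-Eb1) and 7 had an interval below 1, as did 774 (31.3%) of all genes compared, with a median log2 ratio of -1.01. Cd74, the invariant chain, had a level of 45.2 in normal and 19.6 in fibrosis pDC, a ratio of 0.434 (0.417 to 0.451). In pDC under the 3 limits 0 of 7 were at least 2 times lower, the median was -0.39 and the ratio of Cd74 was 0.687. The median in B cells was 0.09. The co-stimulatory gene Cd86 stood at 0.134 and 0.0924.

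The secretory list held 39 genes to compare. Its median was 0.07, with Rpn1 higher and Mzb1, Sec61b and Ssr4 lower, and -0.08 in pDC under the 3 limits, where 0 were higher and Ssr4, Ssr2 (0.400) and Krtcap2 (0.427) lower. The chaperones Hsp90b1, Hspa5 and Calr did not reach the 2-fold limit. Hsp90b1 stood at 13.3 and 21.8 (ratio 1.64, or 1.49 in pDC under the 3 limits, 0.595 in B cells and 2.43 in T cells). Hspa5 stood at 9.26 and 15.5 (1.68, or 1.15, 0.861 in B cells and 1.70 in T cells), and Calr at 5.64 and 8.40 (1.49, or 0.872). Of the translocation machinery, Sec61b and Ssr4 were at least 2 times lower and Sec61g was not (0.602), Sec61b with a ratio of 0.470 (0.546 in pDC under the 3 limits, 0.277 in B cells) and Ssr4 with 0.482 (0.442 and 0.182). Of the 5 compared genes on a list of cytochrome c oxidase subunits, 4 had an interval below 1 in pDC (31.3% of all genes compared did) and 0 were at least 2 times higher or lower, with a median of -0.49. Under the 3 limits the median was -0.94 and Cox7a2 was lower. Its ratio was 0.643 in all pDC, 0.467 in those under the 3 limits, 0.497 in B cells and 0.561 in T cells. Cox6a1, the common isoform of the subunit that Cox6a2 encodes, stood at 2.89 and 3.66, and the muscle isoform Cox8b had 0 UMIs in both.

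Of 15 lymphoid genes compared, 0 were higher and 5 lower (Cd7, Iglc2, Iglc3, Ly6d and Ptprcap), with a median of -0.86, or -0.20 with 1 higher and 1 lower in pDC under the 3 limits. Dntt, which adds bases at antigen receptor joints and is a trace of lymphoid origin in pDC, stood at 1.06 and 0.976 and had a UMI in 44.1% and 55.3% of pDC. Rag1 had 5 UMIs in normal and 1 in fibrosis pDC. Cd4, which mouse pDC express in part, stood at 4.38 and 2.30 and the immunoglobulin chain Ighm at 13.2 and 8.34. The ratio of Ighm was 0.629, or 1.22 in pDC under the 3 limits.

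**Figure D5:**
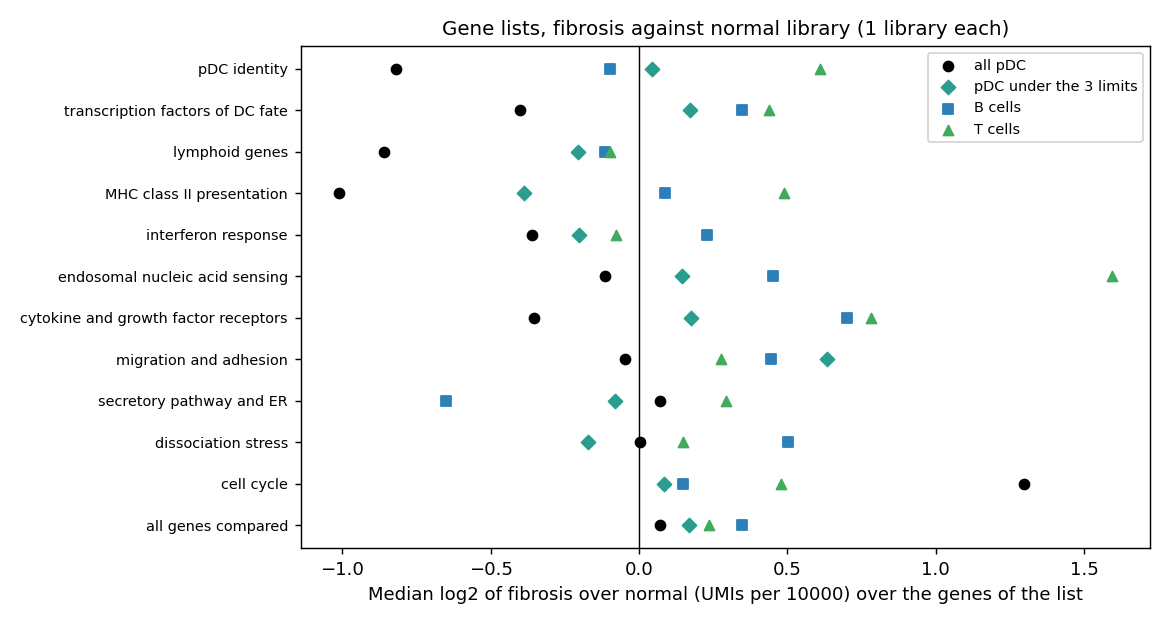
Median log2 ratio of fibrosis over normal (x axis, UMIs per 10000) over the compared genes of 11 lists and over all genes compared, in all pDC, pDC under the 3 limits, B cells and T cells. The pDC identity list lies at -0.82 in all pDC and 0.04 in those under the 3 limits, and the MHC class II list at -1.01 and -0.39.

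Cell cycle genes were higher in 3 of 6 cases in fibrosis pDC, Mki67 (3.86), Top2a (3.64) and Stmn1 (3.32), and in 0 of 4 in pDC under the 3 limits. In the latter, Top2a had a ratio of 0.829. Mki67 and Stmn1, which stayed under 1 UMI per 10000 there, had ratios of 0.383 and 3.01. Mki67 had a UMI in 5.88% of normal and 13.7% of fibrosis pDC, and 1 fibrosis cell of 54335 UMIs held 51 of the 201 Mki67 UMIs. Of 19 dissociation stress genes, Egr1, Junb and Nfkbia were higher and Btg2, Dnajb1, Hspa1a and Hspa1b lower. Within pDC under the 3 limits, Egr1 (1.68) and Junb (1.87) were under 2-fold, Dusp1 (2.33) and Nr4a1 (2.20) were higher and Jun (0.346) was lower too. The heat shock genes Hspa1a (5.25 and 1.03) and Hspa1b (6.28 and 1.18) had ratios of 0.0954 and 0.0680 in pDC under the 3 limits, and were lower in B cells (0.300 and 0.273) and T cells (0.117 and 0.121) as well. Nfkbia, an inhibitor of NF-kB, stood at 2.39 and 7.46, a ratio of 3.12, or 3.44, with 2.88 in B cells and 2.40 in T cells.

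Genes were also ranked by their ratio among those that differed by at least 1 on the log2 scale, in the same direction, from B cells and T cells. Of the 15 with the largest ratios, Col1a1 and Col3a1 are on the stellate list and Lyz2 and S100a9 on the monocyte and neutrophil list. Col1a1, a chain of collagen type I, had 5 UMIs in normal and 1541 in fibrosis pDC, of which 1 cell held 495, a ratio of 272 (116 to 839), or 168 (from 1 and 75 UMIs) in pDC under the 3 limits, with 126 in B cells. Gpnmb, a gene of lipid-laden macrophages, had 0 UMIs in normal and 914 in fibrosis pDC. Against a floor of 3 UMIs over the normal pDC it was at least 269-fold higher. In pDC under the 3 limits it was at least 41.8-fold higher (56 fibrosis UMIs). The exact intervals for Gpnmb began lower, at 218 and 32.9. Its ratio in B cells was 346, so it ranks here only because normal pDC had 0 UMIs. One fibrosis cell of 46170 UMIs held 533 of them and also 483 of the 1592 Lyz2 UMIs, along with 19 of Tcf4. Others were Col3a1, Rgs5, Col5a2, Gdf2, Tgfbi, Fgfr2, Vipr1, Cxcl12, Fn1, Ednrb and S100a9, with ratios from 5.10 to 47.6. The ranking did not use cDC1 or cDC2. Ratios in cDC1 exceeded those in pDC for Col3a1 (86.3), Rgs5 (63.4), Gdf2 (36.3), Fgfr2 (19.1), Vipr1, Cxcl12 (13.1), Fn1 (12.3) and Ednrb (8.74). They were smaller for Col5a2, Tgfbi (2.02) and S100a9 (0.805). Ratios in cDC2 exceeded those in pDC for Col3a1 (166), Rgs5, Fgfr2 (18.3), Cxcl12 and S100a9 (5.58). They were smaller for Col5a2, Tgfbi, Vipr1, Fn1 and Ednrb. Gdf2 had no UMI in normal cDC2. None of the 11 genes from Col3a1 to S100a9 was counted as higher in pDC under the 3 limits, and none reached 1 UMI per 10000 there. The ratio there was 15.4 for Col3a1, 6.38 for Rgs5, 2.45 for Ednrb and 1.51 for Fn1. Col1a1 and Col3a1 are on the stellate list that set the limits, so the limits capped their level in these cells. S100a9, a gene of the monocyte and neutrophil list that also set the limits, had 0.541. Lyz2 stood at 0.378 and 8.17, a ratio of 21.6 (16.9 to 28.1), or 7.87 in pDC under the 3 limits, and is on the monocyte and neutrophil list too.

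The 15 with the smallest ratios held 3 genes of hepatocytes (Apoc3, Orm1 and Adh1, from 0.0599 to 0.196). Besides Spib, Gm21762, Tyrobp, Ccl4 and Pld4, the rest were Ppif (0.353), the G protein regulator Rgs10 (0.392), Adam11 (0.438), the phospholipid transfer protein Pltp (0.460), Cib1 (0.466), Clec10a (0.494) and the chemokine Ccl2 (0.204). Apart from the hepatocyte genes, none of these was counted as lower in pDC under the 3 limits, where the ratio was 0.591 for Gm21762 (0.364 in all pDC, 0.327 to 0.405), 0.544 for Ppif, 0.521 for Rgs10, 0.747 for Adam11, 0.694 for Pltp and 0.531 for Cib1. Adam11 had 1 and 1 UMI in B cells and 5 and 6 in T cells, so its difference from them rests on few counts. Of the 320 Ccl2 UMIs in normal pDC, 1 cell held 313. Without the cell with most in each library, the Ccl2 ratio was 5.29.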

How the data were processed

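Liver non-parenchymal cells of 1 normal and 1 CCl4-treated mouse were profiled with 3′ droplet libraries. The authors deposited raw UMI counts per gene and cell, made with Cell Ranger 3.0.1 against mm10; counts in cells rest on UMIs, so PCR copies of a molecule were counted 1 time. The study's methods state that doublets were tested for and removed with Scrublet. The study clustered as many cells as were deposited, 8130 and 6437, and no doublet caller was run here. The members, the gene lists and the comparison classes were chosen with earlier results of these data known.

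Counts were read with Python 3.11.15 (numpy 2.4.6, scipy 1.17.1, pandas 2.3.3) and summed over the pDC of a library. Levels are UMIs per 10000 with exact Poisson intervals, ratios carry exact conditional intervals and shares Clopper-Pearson intervals, all at 95% and for counting error only. Bounds given for a count of 0 use a floor of 3 counts instead. No p-value was computed, with 1 library per condition. Depth ranged from 1092 to 62523 UMIs per pDC. A gene was compared at 1 UMI per 10000 or more in either library and counted as higher or lower at a ratio of 2 or 0.5. To compare shares across depths, cells were thinned to 1000 UMIs. The ratios were checked on simulated counts. These were independent Poisson counts over the pooled cells, so the check did not cover genes held mostly by single cells.

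Genes were named by rule, as up to 6 of each list by level together with those counted as higher or lower, the 15 largest and 15 smallest ratios that differed from B and T cells, and the 25 genes most above the comparison classes. Ccr2, Cd86, Cox8b, Cxcr4, Dntt, Dusp1, Fcrla, Flt3, Id2, Il6, Il12b, Irf7, Isg15, Krtcap2, Nr4a1, Paqr5, Rag1, Slc15a4, Ssr2, Tlr7, Tlr9 and Tnf were named after their values were seen. Some genes that the rule names are not reported here. Alternatives covered the selection rule, depth, scaling, low-level filters and thinning. The limit on RNA of other cells and that of 10000 UMIs were chosen after seeing the data.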

Additional observations from a re-analysis of the deposited data

Results flagged for a closer look

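Among the genes compared, 4 had a ratio past 2 or 0.5 in pDC and past 2 or 0.5 the opposite way in both B cells and T cells, with at least 10 UMIs in each of these classes over both libraries. The difference was not tested, since each condition is 1 library. Ccl2 had a ratio of fibrosis over normal of 0.204 in pDC, but of 5.73 in B cells, 6.93 in T cells and 2.53 in cDC2. In cDC1 it was 0.894 (0.497 to 1.56). In pDC under the 3 limits it was 5.23 (1.19 to 31.3), from 3 normal and 7 fibrosis UMIs. One normal pDC held 313 of its 320 UMIs, and without the top cells the ratio was 5.29, the direction of B and T cells. Clec10a had 0.494 in pDC, 5.12 in B cells and 2.67 in T cells, the last from 10 and 9 UMIs with an interval of 0.962 to 7.32 that includes 1 (0.864 in pDC under the 3 limits), but 0.631 (0.516 to 0.772) in cDC2, the direction of pDC, and Pltp had 0.460, 2.05 and 3.82 (0.694), with 1.55 (1.08 to 2.25) in cDC2. S100a9 had 5.10 in pDC, 0.337 in B cells and 0.302 in T cells (0.541), but 5.58 (2.73 to 12.9) in cDC2, and 1 cell of 4322 UMIs held 133 of its 231 UMIs in fibrosis pDC.

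Outside the cells analysed, 10 normal and 9 fibrosis cells over the mitochondrial limit met the rest of the pDC rule.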

How the results depend on the processing

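Of 236 values of shares, levels, counts and list medians recomputed under the alternatives, 169 stayed within the interval of the reported value or, for counts of genes, within 1.5 times. These intervals are wide for lists: of 113 such medians 25 had the other sign, among them in pDC under the 3 limits migration (0.64 for -0.05), transcription factors (0.17 for -0.40), endosomal sensing (0.15 for -0.12) and receptors (0.18 for -0.35). With Kupffer genes under 5 UMIs per 10000, 81 fibrosis pDC were left (1.32%), with Tcf4 at 17.2 and Pacsin1 at 0.910 in fibrosis pDC, and medians of -1.23 (pDC identity), -0.76 (transcription factors), -1.26 (MHC class II) and -0.59 (migration), and 409 genes were higher and 255 lower. A mitochondrial limit of 5% left 7 and 11 pDC (0.378% and 0.645%), too few for gene results. In pDC under the 3 limits the shares were 2.03% and 1.42%, Tcf4 stood at 28.9 and 39.9, Pacsin1 at 2.47 and 2.79, 135 genes were higher, and medians were 0.044 (identity), -0.39 (MHC class II), -0.20 (interferon response), -0.20 (lymphoid), 0.085 (cell cycle) and 0.17 (all genes). With at most 10000 UMIs the shares were 2.17% and 1.66%, Tcf4 stood at 29.9 and 39.3, Pacsin1 at 2.58 and 2.52, 197 genes were higher, and medians were -0.13 (identity), -0.38 (MHC class II), -0.23 (interferon response), 0.33 (cell cycle) and 0.17 (all genes). Without the deepest 5% Tcf4 stood at 28.2 and 25.1, Pacsin1 in fibrosis pDC at 1.47, and medians were -0.81 (MHC class II) and 0.60 (cell cycle). A rule of 10 UMIs per 10000 gave fibrosis levels of 25.2 (Tcf4) and 1.49 (Pacsin1) and medians of -0.74 (MHC class II) and 0.11 (all genes), and a rule of 12 UMIs -0.91 (MHC class II). Per cell, 666 genes were higher and 86 lower, with medians of -0.30 (identity), -0.49 (MHC class II), 0.16 (interferon response), 0.59 (secretory) and 0.59 (all genes). As a mean over cells the medians were -0.31 (identity), -0.62 (MHC class II), -0.23 (interferon response), 0.46 (cell cycle) and 0.14 (all genes), and with a median-ratio size factor -0.011 (all genes). Genes higher and lower were 539 and 257 from 0.5 UMIs per 10000, 159 and 93 from 2, and 2176 and 1352 with no filter beyond 1 UMI. Thinned to 2000 UMIs, Tcf4 was in 99.5% and 96.9% and Pacsin1 in 35.1% and 31.2% of pDC.

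Of 90 named genes counted as higher or lower, between 49 (under the 3 limits, of 89 with a value) and 90 (5 UMIs of the rule) kept a ratio past 2 or 0.5. The direction turned for Ccl2, to 9.20 without the deepest 5%, 5.23 in pDC under the 3 limits (from 3 and 7 UMIs), 4.78 with at most 10000 UMIs and 5.29 without its top cell. In pDC under the 3 limits it turned for Mki67 (0.383), Top2a (0.829) and S100a9 (0.541). The S100a9 value rests on 29 and 7 UMIs, with an interval of 0.200 to 1.26 that includes 1. S100a9 is on the list that set the limits, which remove the cell with most of its UMIs by construction. For the others, the cause was not tested. The planned limit on RNA of 6 other cell types left 0 normal and 2 fibrosis pDC, since hepatocyte RNA was in every normal pDC, and was not run. No paired analysis was possible because each condition is 1 library.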
